A study of Mus musculus with 8 samples.

Results

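The glutathione and thioredoxin antioxidant enzymes were taken as the array genes whose symbols name a glutathione transferase, a glutathione peroxidase, a glutaredoxin, a thioredoxin or its reductase, a peroxiredoxin, a superoxide dismutase, catalase, an enzyme that makes or reduces glutathione, the quinone reductase Nqo1 or the heme oxygenase Hmox1. They numbered 55 genes, measured by 85 probes on 112 spots, among 30028 gene names and 39429 probes on the array. The rule uses the symbol and no measured value, though the set was proposed with earlier results of these data known. Expression was compared between 4 biological replicates from mice on a high-fat diet and 4 from mice on a control diet, which is called chow in the source label. Both groups were of the C57BL/6 strain and are described as pancreatic beta cells. The age and sex of the animals, the composition and length of the diets, the way the cells were isolated and whether animals were pooled are not given in the sources used here. Each replicate was run on a separate Agilent array, labelled with Cy3 alone.

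Glutathione is a small thiol that cells build with glutamate-cysteine ligase (the catalytic subunit Gclc and the modifier subunit Gclm) and glutathione synthetase (Gss), and that glutathione reductase (Gsr) returns to its reduced form. Glutathione peroxidases use it to remove peroxides, glutaredoxins use it to reduce disulfides, and glutathione transferases attach it to electrophiles. The thioredoxin branch runs in parallel, with thioredoxin reductases feeding thioredoxins and thioredoxins feeding peroxiredoxins, and superoxide dismutases supply the hydrogen peroxide that these enzymes and catalase remove. Beta cells of rodents are known for low levels of catalase and glutathione peroxidase compared with liver.

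Each array carried 43020 spots besides controls. The share of spots well above background ran from 63.6% to 68.6%, with 0 saturated spots, and the 75th percentile of signal from 333.6 to 710.8 intensity units. Levels are given as log2 signal minus that percentile, so 0 marks the 75th percentile of an array, and levels of different probes are not compared. The arrays lay on 2 slides with 2 arrays of each diet on each, replicates 1 and 2 on slide 1 and replicates 3 and 4 on slide 2. High-fat samples occupied positions 2 and 4 and control samples positions 1 and 3 on both slides, so position and diet cannot be told apart. All 10 beta cell markers were measured, with a mean level of 4.89 to 5.24 on high-fat and 5.09 to 5.25 on control arrays. All 11 acinar markers were measured too, with a mean level of 7.08 to 7.91 on high-fat and 6.79 to 7.89 on control arrays. The mean of 6 alpha cell markers was lower without overlap, at 1.49 to 1.93 on high-fat against 2.17 to 2.72 on control arrays, and so was that of 5 delta and PP cell markers, at 2.46 to 2.78 against 2.91 to 3.21. In samples of many cells, fewer cells of a type and less RNA per cell cannot be told apart. Markers of intestinal epithelium, a list written after the values were seen, stood at a mean level of 1.72 and 1.95 on high-fat replicates 2 and 4 and 0.67 on control replicate 4, against -3.04 to -2.29 on the other 5 arrays.

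The probes on which the named results rest are 60 bases long, and those of the 5 genes with the smallest unadjusted p are shown here. Positions are those of the array files, on mm9, with the strand after the position. All 55 symbols are current RefSeq symbols, and the 77 probes whose accession RefSeq lists all carry the symbol RefSeq gives.
Gsto2, chr19:47960702-47960761 (+): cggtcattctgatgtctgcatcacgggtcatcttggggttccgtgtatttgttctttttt
Gsto1, chr19:47939128-47939187 (+): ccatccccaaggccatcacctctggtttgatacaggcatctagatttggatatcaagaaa
Gpx3, chr11:54723436-54723495 (+): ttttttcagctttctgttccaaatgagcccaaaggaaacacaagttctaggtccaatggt
Sod3, chr5:52760685-52760744 (+): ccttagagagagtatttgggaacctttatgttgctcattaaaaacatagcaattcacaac
Prdx6, chr1:163171138-163171197 (-): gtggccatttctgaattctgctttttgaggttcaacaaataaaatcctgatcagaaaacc

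A further set is shown because a probe and its gene name do not match in a simple way. The Glrx2 probe with the highest mean shares stretches of 20 bases with 58 of 32851 RefSeq promoter windows (0.177%), over the 56 bases in capitals, while the other Glrx2 probe printed here shares them with 0. The capitals have the character of a short interspersed repeat of the mouse B1 kind, so its signal cannot be assigned to Glrx2 alone. For Gstm1 the probe with the highest mean lies on chromosome 5, whereas RefSeq places the gene on chromosome 3, where the other Gstm1 probe lies.
Glrx2, chr1:145596708-145596767 (+): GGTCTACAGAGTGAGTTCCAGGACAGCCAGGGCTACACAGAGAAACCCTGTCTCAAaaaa
Glrx2, chr1:145593845-145593904 (+): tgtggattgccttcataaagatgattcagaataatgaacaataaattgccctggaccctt
Gstm1, chr5:117082490-117082549 (-): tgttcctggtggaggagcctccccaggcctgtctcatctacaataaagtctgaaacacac
Gstm1, chr3:107815595-107815654 (-): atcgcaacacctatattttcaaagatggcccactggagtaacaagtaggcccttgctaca

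Most of these genes were measurable in the samples. A probe was kept if it was well above background on at least 4 of the 8 arrays, which held for 74 of the 85 probes and 51 of the 55 genes. Of the probes, 68 were above background on all 8 arrays and 5 on none. The 4 genes without a kept probe were Gpx5, an epididymal peroxidase, with 0 arrays, Gpx6 with 2, the alpha-class transferase Gsta4 with 3 and the theta-class transferase Gstt4 with 1. Each of the 51 genes kept is represented by its probe of highest mean level, and for 48 of them that probe was above background on all 8 arrays. The exceptions were Gsta2 with 4 arrays, Mgst2 with 6 and Gpx1 with 6. For Gpx1, the spots of control replicates 1 and 2 carried outlier marks and were left out.

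No antioxidant gene differed between the diets by the test across all genes. With limma and Benjamini-Hochberg adjustment over 19994 genes, 0 of the 51 passed an adjusted p under 0.05, and 0 genes of the whole array did (0%), with no change of either count when the slide was a block. At an unadjusted p under 0.05 there were 4 of 51 (7.84%), against a background of 5.81% of all genes (1162 of 19994). The omega-class transferase Gsto2, the extracellular superoxide dismutase Sod3 and the peroxiredoxin Prdx6 were higher in the high-fat samples, where the background is 2.5%, and the plasma glutathione peroxidase Gpx3 was lower, where it is 3.32%. The members' share is near that of the whole array. Differences were above 0 for 32 genes and below 0 for 19, with a median of 0.069 on the log2 scale, against 49.7% above 0 and a median of -0.0014 over all genes. This balance rests on the scaling: with arrays centred on their median 40 members stood above 0 (and 64.7% of all genes). With quantile normalization 28 did (and 51.1% of all genes), and with the deposited values 26 (and 50.6%). Under normexp background correction 22 did (43.1% of members, against 58.6% of all genes), and the median of all genes moved to 0.125. On high-fat replicate 2 the local background reached 261989 intensity units. Normexp without spots of high local background put 31 members above 0, and 57.7% of all genes. Among the 1162 genes of the background, 42.9% were higher, while with median centring 67.1% of such genes were. For 44 of the 51 genes the difference was smaller than 2 standard errors. Without high-fat replicate 1 the count was 10 of 51, against 10.4% of all genes, and without the 3 arrays with raised intestinal markers it was 2 of 51, against 3.96%. The plot of all differences by family shows Gsto2 as the point farthest to the right among genes with a small error.

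**Figure D1:**
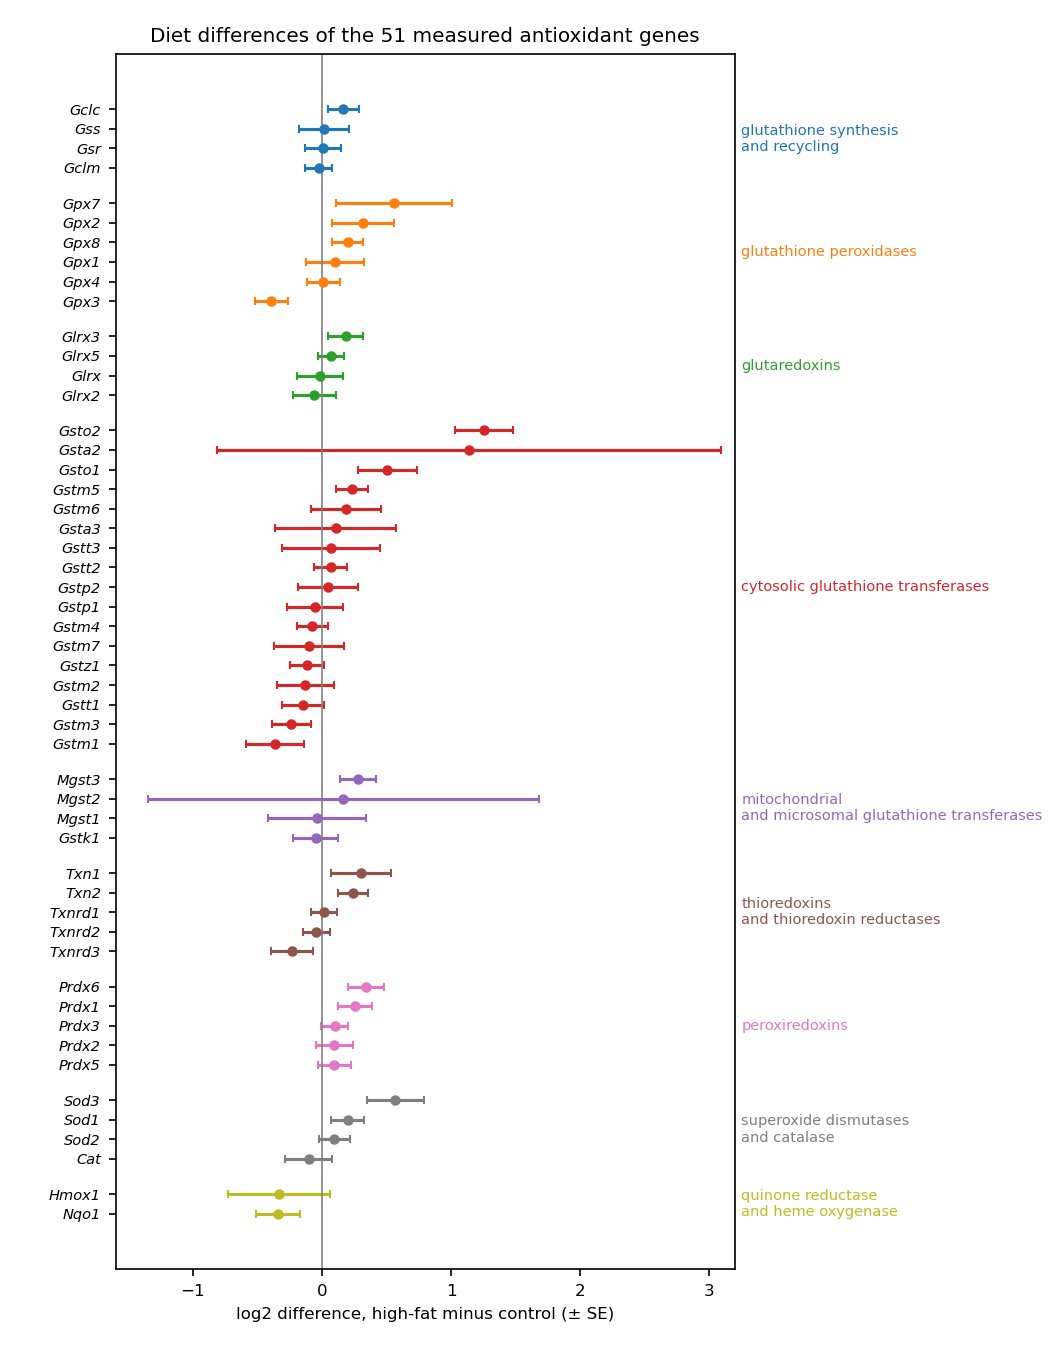
Log2 difference, high-fat minus control, with its limma standard error for the 51 measured antioxidant genes, grouped by family and ordered by size within a family. Gsto2 stands at 1.25 and Gpx3 at -0.39, while Gsta2 and Mgst2 have standard errors of 1.95 and 1.52.

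Gsto2, an omega-class enzyme that reduces dehydroascorbate to ascorbate, had the smallest unadjusted p of the set. Its log2 level was -0.53, 0.47, 0.33 and 0.35 on high-fat arrays 1 to 4, against -1.07, -1.01, -1.01 and -1.31 on control arrays 1 to 4. The groups did not overlap, with all high-fat arrays the higher ones, as for 1.7% of all genes, and high-fat replicate 1 lay closest to the controls. The mean was 0.16 ± 0.46 in high-fat samples and -1.10 ± 0.14 in control samples (SD, n = 4 each), a log2 difference of 1.25 ± 0.22 (SE) or 2.39-fold. Its adjusted p by limma was 0.336, so the difference did not pass the threshold. It was 1.01 on slide 1 and 1.50 on slide 2. Without high-fat replicate 1 the difference was 1.48 and passed the threshold, with a limma adjusted p of 0.0382. Over the 25 other settings the difference lay between 0.77 and 1.50 and the limma adjusted p between 0.038 and 0.883. Without the 3 arrays with raised intestinal markers it was 0.93, with a limma adjusted p of 0.883. That fit, here and for other genes, keeps only high-fat replicates 1 and 3 and control replicates 1 to 3. For Gsto2 it thus keeps the high-fat array closest to the controls, so the smaller value cannot be assigned to the intestinal markers.

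Gsto1, the other omega-class gene, is a neighbour of Gsto2: no other RefSeq gene starts between them, and their probes are 21514 bases apart on chromosome 19. Its level was 1.37, 1.97, 1.13 and 1.83 on high-fat arrays 1 to 4 and 0.66, 1.01, 1.39 and 1.23 on control arrays 1 to 4. The groups overlapped, since high-fat replicate 3 lay below both control replicates 3 and 4. The log2 difference was 0.51 ± 0.23 (limma adjusted p 0.857), with 0.84 on slide 1 and 0.17 on slide 2. It was 0.15 under normexp, 0.51 under normexp without spots of high local background and 0.23 without the 3 arrays with intestinal markers.

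**Figure D2:**
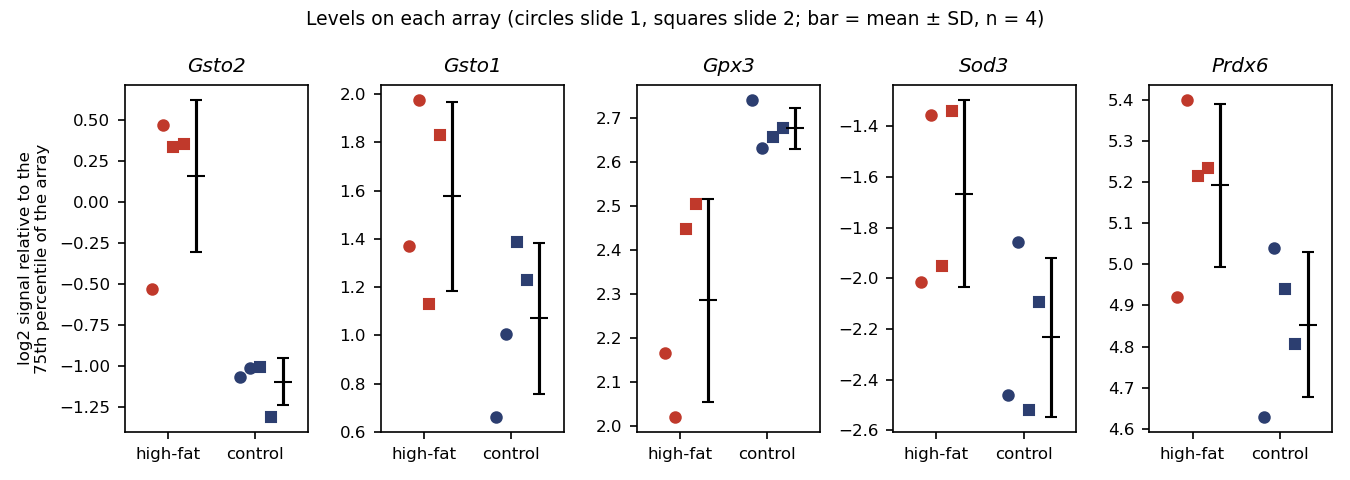
Log2 signal relative to the 75th percentile of the array for 5 genes, with high-fat arrays on the left and control arrays on the right of each panel. Points are single arrays, circles for slide 1 and squares for slide 2, and bars give mean ± SD (n = 4). The groups do not overlap for Gsto2 and Gpx3, and overlap for Gsto1, Sod3 and Prdx6.

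The cytosolic glutathione transferases stood on both sides of 0. Of 19 genes, 17 were measured, 9 above and 8 below 0, with a median difference of 0.044, and Gsto2 alone was at an unadjusted p under 0.05. The lowest was the mu-class gene Gstm1, at -0.36 ± 0.23 from the chromosome 5 probe and -0.44 ± 0.20 from the chromosome 3 probe. The chromosome 5 probe gave -0.19 without control replicate 3, 0.11 on slide 1 and -0.83 on slide 2. On the chromosome 3 probe, Gstm1 had levels of 0.79, 0.04, 0.09 and -0.06 on high-fat arrays 1 to 4 and 0.66, 0.44, 0.86 and 0.64 on control arrays 1 to 4. High-fat replicates 2, 3 and 4 lay below every control array and high-fat replicate 1 lay among the controls. The pi-class gene Gstp1, an abundant detoxifying transferase in many epithelia, differed by -0.05 ± 0.22. Its tandem neighbour Gstp2 differed by 0.04 ± 0.23.

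Gsta2, an alpha-class transferase typical of liver and intestine, varied most over the 8 arrays, where the median range was 0.74 log2 units both over the set and over all genes. Its level was -6.94, -0.46, -6.42 and -0.12 on high-fat arrays 1 to 4 and -3.54, -7.03, -6.59 and -1.35 on control arrays 1 to 4. It was well above background on 2 arrays of each diet, so the lowest levels are bounds. The 3 highest arrays were high-fat replicates 2 and 4 and control replicate 4, and its diet difference of 1.14 had a standard error of 1.95.

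Among the membrane-bound and mitochondrial transferases, 2 of 4 measured genes were above 0, with a median of 0.062 and 0 at an unadjusted p under 0.05. Mgst3, which acts on lipid hydroperoxides and leukotrienes, was the highest at 0.28 ± 0.14, and its other probe stood at 0.30. The mitochondrial and peroxisomal kappa-class Gstk1 was the lowest at -0.05 ± 0.17. The microsomal Mgst1 differed by -0.04 ± 0.38. Mgst2 had levels of -6.36, -0.56, -6.16 and -0.79 on high-fat arrays 1 to 4 and -4.42, -4.52, -4.13 and -1.45 on control arrays 1 to 4. Its probe was well above background on 2 of 4 high-fat and 4 of 4 control arrays, so the lowest levels are bounds. Its 3 highest arrays were those on which Gsta2 was highest.

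Glutathione peroxidases included the only gene of the set that lay lower in all high-fat samples. Gpx3, the secreted selenium peroxidase, had levels of 2.17, 2.02, 2.45 and 2.51 on high-fat arrays 1 to 4, against 2.74, 2.63, 2.66 and 2.68 on control arrays 1 to 4. No high-fat array reached the lowest control array, as held for 1.71% of all genes. The mean was 2.29 ± 0.23 in high-fat samples and 2.68 ± 0.05 in control samples (SD, n = 4 each). The log2 difference was -0.39 ± 0.13 (SE), which is 0.762-fold, with a limma adjusted p of 0.742. It was -0.59 on slide 1 and -0.19 on slide 2. Under normexp it was -0.69, and -0.36 when spots of high local background were left out. The alpha cell and the delta and PP cell marker lists were lower in the same 4 samples, and their part in the Gpx3 difference was not tested.

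The 5 remaining peroxidases were above 0, but only 3 of the family of 6 were in the deposited table and 2 under normexp. With spots of high local background left out of normexp, 4 of the 6 were. Gpx7, a peroxidase of the endoplasmic reticulum, was the highest at 0.56 ± 0.45, and the related Gpx8 stood at 0.20 ± 0.12. Gpx2, the gastrointestinal peroxidase, stood at 0.32 ± 0.24, with -0.21 on slide 1 and 0.84 on slide 2. The cytosolic Gpx1 differed by 0.10 ± 0.23 with only 2 control values, and by 0.08 ± 0.16 when the marked spots were kept. Gpx4, which reduces lipid hydroperoxides within membranes, differed by 0.01 ± 0.13. The 6 measured peroxidases had a median difference of 0.15.

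Enzymes that make and reduce glutathione stayed within 0.2 log2 units of 0, and 0 of 4 were at an unadjusted p under 0.05. The signs of Gclm, Gss and Gsr turned under other settings. The differences were 0.16 ± 0.12 for Gclc, -0.02 ± 0.10 for Gclm, 0.02 ± 0.20 for Gss and 0.01 ± 0.14 for Gsr (SE). Gclm varied little, over 0.29 log2 units across the 8 arrays, a range at percentile 4.83 of all genes.

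The 4 glutaredoxins had a median difference of 0.028, with Glrx3, an iron-sulfur cluster chaperone, highest at 0.18 ± 0.14. Glrx2, the mitochondrial glutaredoxin, was lowest at -0.06 ± 0.17 from the probe with repeat sequence and stood at 0.11 ± 0.12 from the other probe printed above. The cytosolic Glrx differed by -0.02 ± 0.18.

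In the thioredoxin branch 0 of 5 thioredoxins and reductases were at an unadjusted p under 0.05, and their median difference was 0.017. The cytosolic thioredoxin Txn1 was highest at 0.30 ± 0.23, but stood at -0.10 under normexp. Normexp without spots of high local background gave 0.31 for Txn1. The cytosolic reductase Txnrd1 differed by 0.02 ± 0.10, and Txnrd3, known for its role in testis, was lowest at -0.23 ± 0.16. The probes of the mitochondrial thioredoxin Txn2 disagreed, with 0.24 ± 0.12 for the brighter and -0.26 ± 0.22 for the dimmer.

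All 5 peroxiredoxins stood above 0, and 4 of 5 did with quantile normalization and in the deposited table. Under normexp 1 of 5 did, and 5 of 5 did when spots of high local background were left out. Their median difference was 0.099, and 1 of them was at an unadjusted p under 0.05. Prdx6, which reduces oxidised phospholipids, had levels of 4.92, 5.40, 5.21 and 5.24 on high-fat arrays 1 to 4 and 4.63, 5.04, 4.94 and 4.81 on control arrays 1 to 4. High-fat replicates 2, 3 and 4 lay above every control array, and high-fat replicate 1 lay within the control range. The log2 difference was 0.34 ± 0.14 (limma adjusted p 0.820), with 0.33 on slide 1 and 0.35 on slide 2. The 3 Prdx6 probes tested gave differences between 0.24 and 0.34, and the gene stood at 0.20 without the 3 arrays with intestinal markers. It turned to -0.082 under normexp, but was 0.33 under normexp without spots of high local background. Prdx1, a cytosolic peroxide reductase, stood at 0.25 ± 0.13. It was -0.15 under normexp and 0.26 when spots of high local background were left out. The mitochondrial Prdx3 differed by 0.10 ± 0.10, and Prdx5 was the lowest of the family at 0.09 ± 0.13.

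Of the enzymes that act on superoxide and hydrogen peroxide, 3 of 4 stood above 0, and 1 of 4 in the deposited table and under normexp. With spots of high local background left out of normexp, 3 of 4 did. Sod3, the secreted superoxide dismutase, had levels of -2.02, -1.35, -1.95 and -1.34 on high-fat arrays 1 to 4 and -2.46, -1.86, -2.52 and -2.09 on control arrays 1 to 4. High-fat replicates 2 and 4 lay above all controls, while high-fat replicates 1 and 3 lay below control replicate 2. The log2 difference was 0.57 ± 0.22 (limma adjusted p 0.809), and it was 0.30 without the 3 arrays with intestinal markers and 0.20 in the deposited table. The cytosolic Sod1 differed by 0.20 ± 0.13 and the mitochondrial Sod2 by 0.10 ± 0.12. Catalase (Cat) was the lowest at -0.10 ± 0.18, and its dimmer probe stood at 0.21 ± 0.33.

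Nqo1 and Hmox1, inducible targets of the transcription factor NRF2 (Nfe2l2), are given by probe. Nqo1 stood at -0.34 ± 0.17, with -0.07 on slide 1 and -0.61 on slide 2. Its sign turned under normexp, at 0.31, but not when spots of high local background were left out. In the deposited table it stood at -0.064. Hmox1, the enzyme that opens the heme ring, stood at -0.33 ± 0.39 on the probe that stands for it. Its levels there were 1.14, 0.55, -0.09 and -0.06 on high-fat arrays 1 to 4 and 0.19, 0.55, 1.72 and 0.42 on control arrays 1 to 4. Control replicate 3 and high-fat replicate 1 were the 2 highest. The other Hmox1 probe gave 0.23 ± 0.17, the opposite sign, so no direction is given for this gene. In all, 19 genes had several tested probes, which shared a sign for 12 genes and differed in sign for 7.

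The diet difference was also taken on each slide, and no gene passed the adjusted test of a difference between slides. Of the 50 genes with a value on all arrays, 20 stood above 0 on slide 1 and below 0 on slide 2, and 4 the other way. Over all genes these numbers were 5969 and 3525. The 17 cytosolic transferases had a median difference of 0.29 on slide 1 and -0.32 on slide 2. The test of the diet-by-slide term in limma put 9 of 50 members at an unadjusted p under 0.05, against a background of 6.86%, and 0 at an adjusted p under 0.05 (0% of all genes). These were the transferases Gstp1, Gstp2, Gstt3, Gstm1, Gstm3 and Gsta3, together with Gpx2, Hmox1 and Gss. Gstp1 stood at 0.42 on slide 1 and -0.53 on slide 2. All 11 acinar markers were likewise above 0 on slide 1 and below 0 on slide 2, with medians of 0.57 and -0.37, and 7 of these 11 were at an unadjusted p under 0.05 for the same term.

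**Figure D3:**
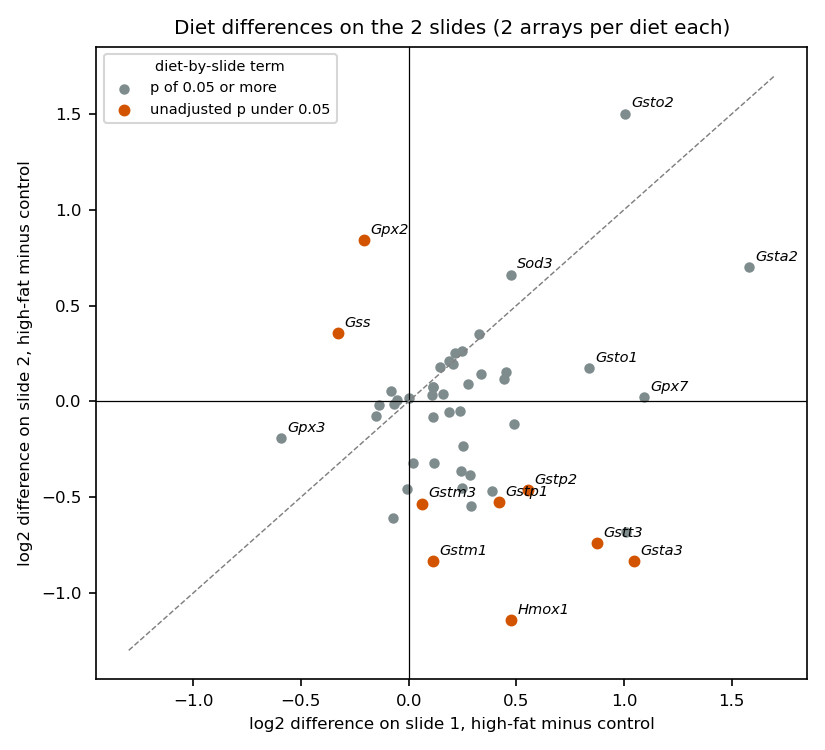
Log2 difference, high-fat minus control, on slide 1 (horizontal) and slide 2 (vertical) for the 50 genes with a value on all arrays, with 2 arrays per diet on each slide. Orange points have an unadjusted p under 0.05 for the diet-by-slide term, and the dashed line marks equal differences. Gsto2 lies in the upper right with 1.01 and 1.50, and Gstp1, Gstp2, Gstt3 and Gsta3 lie in the lower right.

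Arrays were also ordered by level within each gene. The pair and the trio of arrays counted here and in the next paragraph were set with the values known. The counts are therefore a description and no test. For 9 of 50 members (18%), against 8.37% of all genes, the 2 highest arrays were high-fat replicate 1 and control replicate 3. These were Glrx2, Gstk1, Gstm1, Gstm2, Gstm7, Gstp2, Gstt3, Gstz1 and Hmox1, of which Gstm1, Gstp2, Gstt3 and Hmox1 are also among the genes at an unadjusted p under 0.05 for the diet-by-slide term. High-fat replicate 1 lay on slide 1 and control replicate 3 on slide 2. High levels on both raise the difference on slide 1 and lower it on slide 2, so the overlap is partly built in. Glrx2 is counted by the probe with repeat sequence. Its other probe printed above stood at 0.65 on high-fat replicate 1, below 0.91 on high-fat replicate 2. On the other Hmox1 probe high-fat replicate 1 was the lowest array, at -1.88. The other tested probes of Gstm1, Gstm2, Gstm7 and Gstp2 had the same 2 highest arrays. Gstp2 had levels of 5.29, 5.07, 4.53 and 4.89 on high-fat arrays 1 to 4 and 4.45, 4.81, 5.40 and 4.95 on control arrays 1 to 4. The acinar marker mean was highest on the same arrays, at 7.91 on high-fat replicate 1 and 7.89 on control replicate 3, against 6.79 to 7.63 on the other 6. Its part in these levels was not tested.

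A different trio of arrays was highest for Gpx7, Gsta2, Gstm6 and Mgst2. For these 4 of 50 members (8%), against 1.66% of all genes, the 3 highest arrays were high-fat replicates 2 and 4 and control replicate 4. Gsta4 was well above background on these 3 arrays only, at -3.96 and -4.12 on high-fat replicates 2 and 4 and -4.25 on control replicate 4. The second Gstm3 probe was above background on the same 3, at -1.71, -1.70 and -2.63. For Gstm6 the margin was small, with -3.11 on high-fat replicate 2 against -3.22 on control replicate 3. Of its other tested probes, 1 was highest on the same trio and 1 was lowest on high-fat replicate 2, at -4.62. The intestinal fatty acid-binding protein gene Fabp2 stood at 4.24 and 4.40 on high-fat replicates 2 and 4 and at 2.65 on control replicate 4, against -4.78 to -3.61 on the other 5 arrays. Of the 14 intestinal markers 7 were measured, and their part in the transferase levels was not tested.

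**Figure D4:**
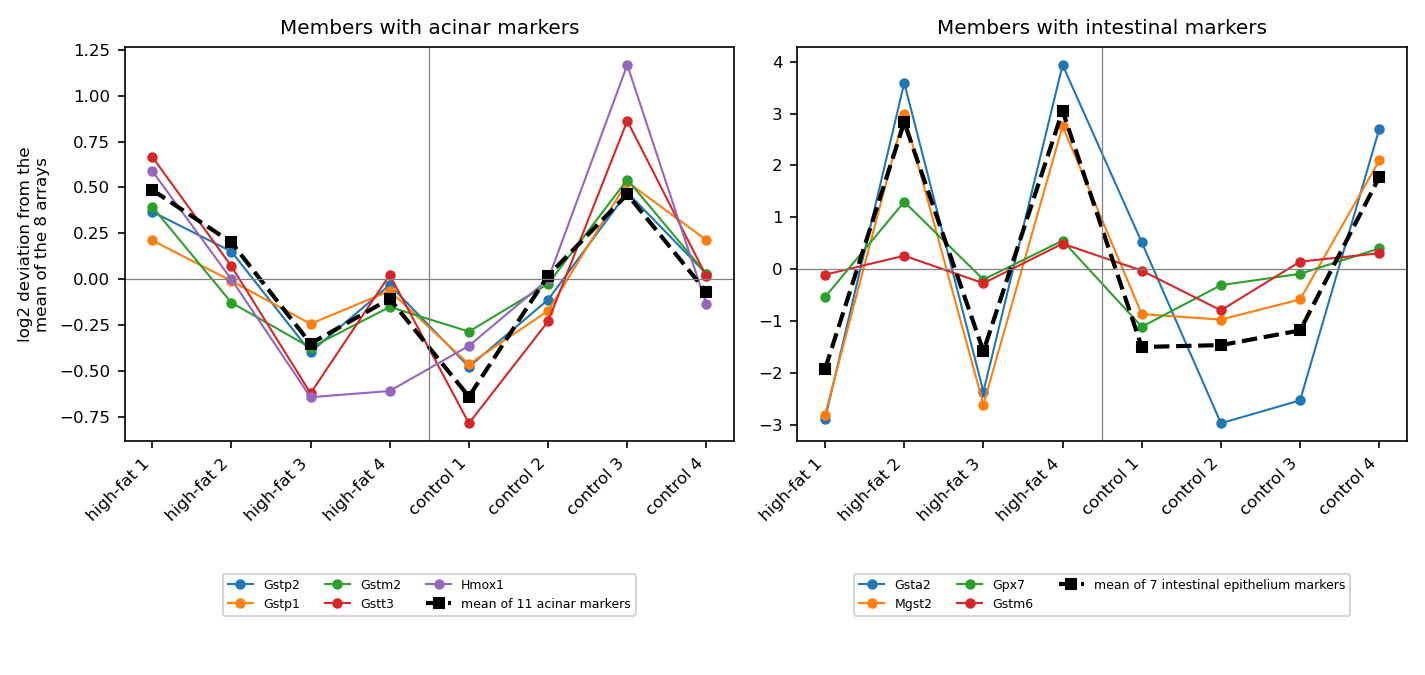
Deviation of each array from the gene's mean over the 8 arrays, in log2 units, for 5 members beside the mean of 11 acinar markers (left) and for 4 members beside the mean of 7 intestinal markers (right). High-fat arrays stand left of control arrays in each panel. Gsta2, Mgst2 and the intestinal markers are highest on high-fat replicates 2 and 4 and control replicate 4. The members were chosen after their values were seen, those on the right for these 3 highest arrays, so their likeness to the marker line is no test. Gstp1 is not among the 9 members with high-fat replicate 1 and control replicate 3 highest.

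Other genes of the pathway were read from lists chosen with earlier results of these data known, and 0 of their genes passed an adjusted p under 0.05 by limma. Of 13 regulators around NRF2, 4 stood above 0 and 9 below (7 and 6 with median centring), with a median of -0.067, and 1 was at an unadjusted p under 0.05. That gene was Bach2, a repressor that competes at the same DNA element, at 0.77 ± 0.21 with a limma adjusted p of 0.607. Its levels were low, at -4.54 to -3.71 on high-fat and -5.09 to -4.54 on control arrays. The probe was well above background on 4 of 4 high-fat and 3 of 4 control arrays. Nfe2l2 itself stood at -0.13 ± 0.10.

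Of 14 enzymes that supply NADPH, the reductant of both branches, 11 stood above 0, with a median of 0.077. Under normexp 5 did, and 10 did when spots of high local background were left out. At an unadjusted p under 0.05 were 2 (14.3%). Over all genes 49.7% stood above 0 and 5.81% were at that p. The mitochondrial malic enzyme Me3 had levels of -0.46, 0.30, 0.18 and 0.16 on high-fat arrays 1 to 4, against -0.84, -0.84, -0.999 and -0.71 on control arrays 1 to 4. The groups did not overlap, as for the 1.7% of all genes that lay higher on all high-fat arrays, and high-fat replicate 1 again lay closest to the controls. The log2 difference of Me3 was 0.89 ± 0.18 (limma adjusted p 0.372). The mitochondrial transhydrogenase Nnt stood at 0.25 ± 0.10 (limma adjusted p 0.809), and the cytosolic malic enzyme Me1 at 0.21 ± 0.16.

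Of 21 measured genes of other thiol and peroxide repair, 17 stood above 0, with a median of 0.11. Under normexp 5 did, and 17 did when spots of high local background were left out. The thioredoxin-binding Txnip was the 1 gene at an unadjusted p under 0.05, at 0.53 ± 0.23 (limma adjusted p 0.841), followed by the methionine sulfoxide reductase Msra at 0.28 ± 0.14. Of 15 measured genes of cystine uptake and glutathione turnover, 13 stood above 0, with a median of 0.083 and 0 at an unadjusted p under 0.05. The aminopeptidase Anpep stood at 0.40 ± 0.20. Of 9 genes of selenoprotein synthesis, 6 stood below 0, with a median of -0.079. Under normexp 3 did, and 5 did when spots of high local background were left out. The selenoprotein P receptor Lrp8 stood at -0.41 ± 0.19. Of 15 measured genes of conjugate export and heme breakdown, 9 stood above 0, and the biliverdin reductase Blvrb stood at -0.30 ± 0.19.

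The core of the antioxidant response element, TGACNNNGC read on both strands, was looked for in RefSeq promoter windows (GRCm38.p6) of 300 bases, from 250 bases before the gene start to 50 after it. Of 48 members with a window, 8 (16.7%) held it, against 3781 of 27025 gene symbols (14.0%). They were Gclm, Gsta3, Gstm5, Gstm7, Mgst1, Prdx1, Sod1 and Txnrd1. Their diet differences lay between -0.10 and 0.25, and 0 of 8 were at an unadjusted p under 0.05. Matches of genes with known NRF2 control are shown with the motif in capitals. All 3 lie on the strand opposite to the gene and are written along the strand that holds the motif. The match is a description of letters and not of a bound site.
Gclm, chr3:122245413-122245441 (-): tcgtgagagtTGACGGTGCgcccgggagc
Prdx1, chr4:116685456-116685484 (-): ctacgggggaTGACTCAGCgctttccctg
Txnrd1, chr10:82859104-82859132 (-): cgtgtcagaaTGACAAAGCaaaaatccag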

How the data were processed

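Labelled RNA was measured on 8 one-dye Agilent arrays. Per the file headers, Feature Extraction 11.5.1.1 wrote the deposited scanner files, in which each spot has a processed signal in intensity units. A table of log2 values for these arrays was also deposited, and the submitters' processing notes name limma without a version, so its scale and centring are known only in part. The number of arrays limits the precision: the median gene had a standard error of 0.17 log2 units.

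Log2 signals were centred on the 75th percentile of each array. Control spots and spots with outlier marks (125 to 228 per array) were left out, and spots of a probe were averaged. A filter required a probe to exceed background well on 4 or more of the 8 arrays, which left 26076 probes, and each of 19994 genes was represented by its brightest probe. Differences, high-fat minus control, came from lmFit and eBayes of limma 3.58.1 (R 4.3.3), with Benjamini-Hochberg adjustment over all genes and a threshold of 0.05. The diet-by-slide term was fitted in the same way. The procedure was tested on simulated data. The labels call the samples biological replicates without saying whether they came from separate animals, so p-values measure the spread between these samples.

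The members and all gene lists were chosen with earlier results of these data known. Genes are named as follows: Gsto2, members at an unadjusted p under 0.05, a set of core members (such as Gclc, Gpx1, Txn1 and Sod1), the highest and lowest of each family, and up to 3 genes of each pathway list by smallest p. Other members are named for their probes or arrays and were chosen after their values were seen. Other settings tried were normexp with an offset of 50, with and without spots of high local background (over 4 times the array's median), median scaling, quantile normalization, the deposited table, other filters and probe rules, other variance models, a block for the slide or for the replicate number, the slides taken singly, and leave-one-out fits. Leaving out 3 arrays together and keeping outlier marks were added after the data were seen. Tables and figures were made with Python 3.11.15, pandas 2.3.3, numpy 2.4.6 and matplotlib 3.10.9.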

Additional observations from a re-analysis of the deposited data

Results flagged for a closer look

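In 7 of 101 groups of 4 arrays, 1 array stood far from the other 3 by Dixon's criterion, which chance meets in about 1 in 20 groups. In high-fat samples these were replicate 1 for Gsto2 (-0.53, lowest), Gpx8 (-1.91, lowest) and Gstm3 (0.20, highest), and replicate 2 for Glrx5 (3.51, highest). In control samples they were replicate 1 for Gsta3 (-1.80, lowest) and Prdx5 (3.86, lowest), and replicate 4 for Mgst2 (-1.45, highest), which is also an array with raised intestinal markers. High-fat replicate 1 accounts for 3 of the 7 and has the highest acinar marker mean of its group, at 7.91. Whether this bears on the Gsto2 level was not tested.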

How the results depend on the processing

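Of the 51 genes, 48 were above background on all arrays, and a difference within 2 standard errors of 0 has no settled sign. For 24 named members, 25 other settings gave 598 values, of which 518 kept direction and side of the threshold, 79 changed sign and 1 (Gsto2 without high-fat replicate 1, 1.48) passed the threshold. Gsto2, Gpx3 and Sod3 changed sign under none of them, and neither did Gclc, Gsto1 and Prdx3, which were not at an unadjusted p under 0.05 in the main fit. With the replicate number as a block, 0 genes and 0 members passed the adjusted threshold and 4 members were at an unadjusted p under 0.05. Of all 19994 genes in that fit, 767 were higher and 1079 lower at that p. The labels give no pairing, so the numbers were not taken as pairs. Same-numbered high-fat and control samples correlated in their deviations at 0.208, 0.397, -0.0041 and 0.304. High-fat replicates 1, 2 and 4 correlated best with the control of their own number, and high-fat replicate 3 with control replicate 1 (0.155). The median standard error was 0.171 in the main fit, 0.149 with the slide as a block and 0.136 with the replicate number as a block. Replicates 1 and 2 lay on slide 1 and replicates 3 and 4 on slide 2, so the block by number also takes up the slide. Shared variation by number beyond the slide remains possible. The genes past the threshold numbered 1 with the deposited value table, 1 with a trended and robust eBayes and 0 to 2 when 1 sample was left out, and among members 0 to 1. Members at an unadjusted p under 0.05 numbered 1 under normexp, 2 without the 3 arrays with intestinal markers (3.96% of all genes) and 2 to 10 when 1 sample was left out. Under normexp 86 of 19994 genes were higher and 63 lower at that p. There were 10 without high-fat replicate 1 (10.4% of all genes), and 2 without control replicate 1, high-fat replicate 2 or high-fat replicate 4. In that order, the latter fits put 322, 303 and 298 of all genes higher and 491, 601 and 652 lower. For the diet-by-slide term members at such a p numbered 2 under normexp and 14 under normexp without spots of high local background. The shares of all genes in these fits are not given here, so the counts are not read as a result about the members.

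Signs turned as follows, as log2 differences. On high-fat replicate 2 the local background reaches 261989 intensity units, and the part of this array in the normexp values was not tested. The planned normexp kept spots of high local background. It gave -0.082 for Prdx6, -0.10 for Txn1, -0.15 for Prdx1, -0.26 for Gpx1, -0.27 for Sod1, -0.37 for Txnrd1, -0.38 for Gsr, -0.39 for Sod2, -0.47 for Gpx4, 0.072 for Mgst1, 0.21 for Gclm and 0.31 for Nqo1. Without spots of high local background it gave -0.027 for Gss and -0.056 for Gpx4. The deposited table gave -0.0023 for Gpx1, -0.0068 for Sod1, -0.011 for Gsr, -0.012 for Txnrd1, -0.035 for Sod2, -0.12 for Gpx4, 0.0040 for Gclm and 0.011 for Mgst1. Quantile normalization gave -0.022 for Txnrd1, -0.031 for Gsr, -0.089 for Gpx4, 0.0011 for Mgst1 and 0.034 for Gclm. Median scaling gave 0.024 for Gstp1, 0.037 for Mgst1, 0.053 for Gclm and 0.062 for Glrx. Array weights gave -0.0026 for Txnrd1, -0.045 for Gss and -0.063 for Gpx4, and the mean of probes gave 0.052 for Cat. Slide 1 alone gave -0.33 for Gss, 0.11 for Gstm1, 0.12 for Cat, 0.39 for Mgst1, 0.42 for Gstp1 and 0.48 for Hmox1. Slide 2 alone gave -0.048 for Sod2, -0.082 for Txnrd1, -0.23 for Gsr, 0.0071 for Gclm and 0.053 for Glrx. Without the 3 arrays it was -0.020 for Gss, -0.049 for Gsr, -0.10 for Gpx4, 0.019 for Gstp1, 0.036 for Cat, 0.056 for Glrx and 0.079 for Gclm. Leaving out 1 sample at a time, the sign turned for 11 members, whose ranges were -0.25 to 0.0045 for Cat, -0.062 to 0.025 for Gclm, -0.18 to 0.071 for Glrx, -0.046 to 0.25 for Gpx1, -0.071 to 0.067 for Gpx4, -0.059 to 0.12 for Gsr, -0.17 to 0.12 for Gss, -0.22 to 0.11 for Gstp1, -0.58 to 0.0013 for Hmox1, -0.26 to 0.30 for Mgst1 and -0.048 to 0.063 for Txnrd1. For the other named members the sign held in these fits, though Gstm1 ranged from -0.52 to -0.19. The cause of these changes of sign was not tested.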
